A study of Mus musculus with 35 samples.

Results

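Meg3, Rian and Mirg are 3 long noncoding RNAs of one imprinted stretch of mouse chromosome 12, and their contacts with SR proteins and with the export receptor NXF1 were taken from iCLIP maps of mouse P19 cells. They are 3 of 37310 annotated genes, 18020 of which carried at least 1 listed tag. Tags were assigned to them when they lay on the same strand inside the annotated gene body, and tags in exons, introns and hosted small RNAs were kept apart. The genes were put forward with the NXF1 libraries in view, where Rian and a neighbouring small nucleolar RNA stood above the SR protein libraries, so they count as chosen by their tag levels in NXF1 against SR protein libraries, and that comparison is given below as a description with no test.

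The cells were P19 embryonal carcinoma cells, a pluripotent mouse line, each stably carrying a bacterial artificial chromosome that expressed 1 GFP fusion. GFP-tagged NXF1, SRSF3, SRSF4 and SRSF6 had 3 libraries each, SRSF1 and SRSF5 had 4 each, SRSF2 had 5 and SRSF7 had 6. A control line expressed GFP with a nuclear localisation signal, and the pooled file of its 4 libraries was used. All cells received the same growth conditions and ultraviolet cross-linking, and all purifications used an anti-GFP antibody. Each protein was mapped in a clonal line, so that a trait of the clone and a trait of the protein cannot be told apart, and the study calls the replicates biological without saying which cultures they came from, so a p-value covers the spread among these libraries. In iCLIP the amount of an RNA in the cell and its binding by the protein cannot be told apart either.

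In iCLIP, reverse transcription stops where a cross-linked peptide sits on the RNA, so the start of each cDNA marks a contact to the nucleotide. SR proteins bind exons through RNA recognition motifs and act in splicing and export, while NXF1 carries ribonucleoproteins through the nuclear pore. Meg3, Rian and Mirg are read from the maternal chromosome in the same direction. The imprinted coding genes Dlk1, Rtl1 and Dio3 of the same stretch are read from the paternal chromosome. Meg3 is a nuclear, spliced long noncoding RNA, Rian is the host of a large array of box C/D small nucleolar RNAs, and Mirg is the host of a microRNA cluster. Box C/D small nucleolar RNAs (snoRNAs) carry a C box and a D box that assemble a ribonucleoprotein, and most guide methylation of ribosomal RNA, but the targets of the SNORD113 family of this domain are not established.

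The deposited positions were those that passed a false discovery threshold in each library, so a value of 0 means that no position on a gene was listed, and the totals count listed tags rather than sequenced reads. The 31 libraries held between 13038 and 4459523 listed tags, and levels are given as CPM, tags scaled to the listed total of the library. Of the 28 SR protein libraries, 22 had at least 50000 listed tags and 6 had fewer. The libraries labelled SRSF2 replicates 2 and 5 stood apart, since their file headers named SRSF1. Tags on the Srsf5 gene itself reached 2605 and 2311 CPM there, against 216 to 3511 CPM in the SRSF5 libraries and at most 618 CPM in the other 25 libraries. Tags on the Srsf2 gene stood at 1165 and 1052 CPM there, inside the 337 to 1998 CPM of SRSF2 replicates 1, 3 and 4. Every tag on Meg3, Rian or Mirg under the SRSF2 label came from these libraries, and the comparisons of levels, the co-occurrence with NXF1 and the correlations are given with and without them. All 13 pluripotency markers on the fixed list carried tags, with a median sum of 1024 CPM over the libraries, whereas the sums of the endoderm and mesoderm lists had a median of 0 and that of the neural list 6.52 CPM.

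Meg3 (ENSMUSG00000021268.10; mm9 chr12:110779211-110809936, plus strand) spans 30726 nt, and its annotated exons of all isoforms together cover 58.3% of it. Rian (ENSMUSG00000091793.1; chr12:110842155-110899919) spans 57765 nt with 13.9% in exons and holds 13 snoRNA and 4 microRNA genes. Mirg (ENSMUSG00000091158.1; chr12:110973191-110987665) spans 14475 nt with 20.8% in exons and holds 9 microRNA genes. From the start of Meg3 to the end of Mirg the domain covers 208455 nt. Over all libraries 21535 of 24445952 listed tags lay on the genes, 8323 on Meg3, 10950 on Rian and 2262 on Mirg, and another 16284 lay between them on the plus strand, 43.1% of all tags of the domain. No tag of any library lay on the minus strand of the domain. SRSF7 replicate 4, the library with most listed tags, gave 49.7% of the Meg3 tags, 29.9% of the Rian tags and 64.3% of the Mirg tags, so levels below are set per library.

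Sequences of 5 SNORD113 copies are shown because they carried most of the snoRNA tags of the domain or, for the last, because it nearly repeats another. Each is named by the last 5 digits of its Ensembl gene, and capitals mark the first TGATGA, the core of the C box, and the last CTGA, the D box. All 11 snoRNAs of the domain that carried tags had both.
88294 in Rian (chr12:110874222-110874294): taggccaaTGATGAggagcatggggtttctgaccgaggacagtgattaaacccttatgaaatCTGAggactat
84549 in Rian (chr12:110887827-110887898): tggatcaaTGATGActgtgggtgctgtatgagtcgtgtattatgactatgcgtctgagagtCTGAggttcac
64417 in Rian (chr12:110894555-110894626): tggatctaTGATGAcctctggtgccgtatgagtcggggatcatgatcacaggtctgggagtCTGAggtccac
64487 after Rian (chr12:110919010-110919084): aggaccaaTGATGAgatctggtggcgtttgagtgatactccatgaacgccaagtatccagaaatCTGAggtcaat
64545 after Rian (chr12:110920594-110920668): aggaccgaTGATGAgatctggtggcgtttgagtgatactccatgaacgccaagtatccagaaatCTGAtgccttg

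**Figure D1:**
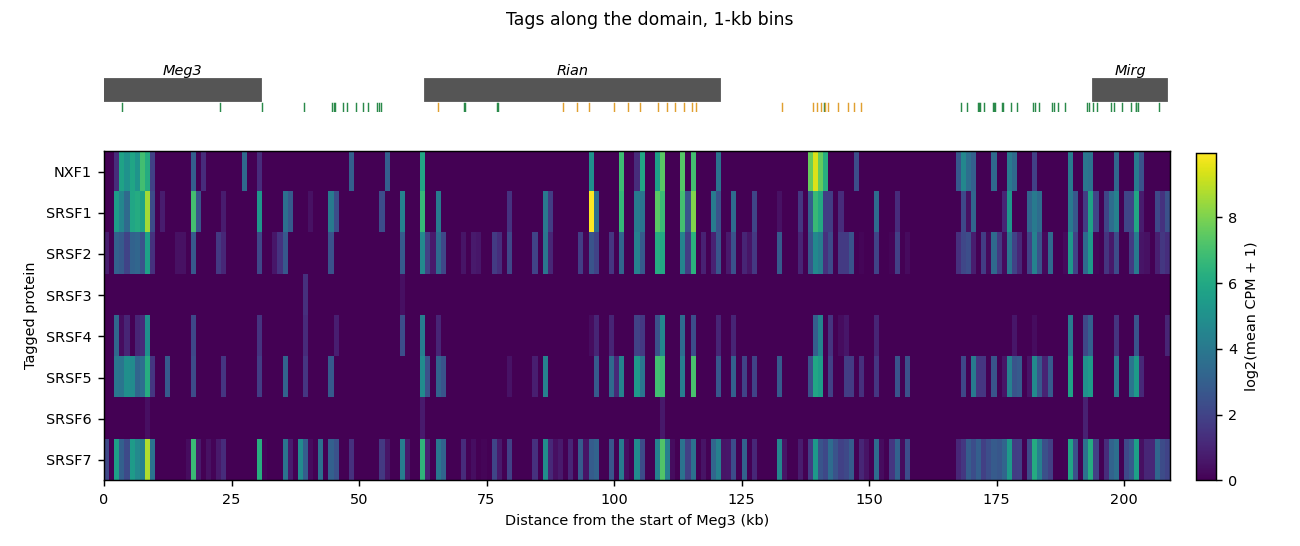
Mean tag level in 1-kb bins from the start of Meg3 to the end of Mirg, as log2(mean CPM + 1) per tagged protein, with NXF1 above the SR proteins. Grey bars are the 3 genes, orange ticks snoRNA genes and green ticks microRNA genes. NXF1, SRSF1, SRSF2, SRSF4, SRSF5 and SRSF7 share bins at the start of Meg3 and at the snoRNAs, SRSF3 and SRSF6 are nearly empty, and the SRSF2 row rests on the libraries labelled replicates 2 and 5.

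Meg3, counted over exons and introns, stood at 627, 470 and 82.8 CPM in the NXF1 libraries. SRSF1 replicates 1 to 4 held 1092, 1308, 840 and 0 CPM, and SRSF7 replicates 1 to 6 held 0, 1584, 1216, 927, 0 and 1028 CPM. The libraries at 0 had fewer than 50000 listed tags, as did SRSF7 replicate 3. SRSF5 replicates held 40.1, 78.0, 52.8 and 610 CPM, SRSF4 replicates 0, 97.1 and 50.2 CPM, and SRSF2 replicates 0, 244, 0, 0 and 270 CPM. SRSF3 had no listed Meg3 tag in any of its 3 libraries and SRSF6 had 0, 0 and 0.94 CPM. The pooled control held 3 Meg3 tags among 21880 listed tags, or 137 CPM, above every SRSF4 library, SRSF5 replicates 1 to 3 and NXF1 replicate 3, and it held no tag on Rian or Mirg.

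Rian outside its hosted small RNAs stood at 552, 356 and 101 CPM with NXF1. SRSF1 replicates held 634, 357, 334 and 0 CPM, SRSF5 replicates 136, 170, 106 and 610 CPM, and SRSF7 replicates 0, 237, 585, 643, 181 and 501 CPM. The libraries labelled SRSF2 replicates 2 and 5 held 402 and 449 CPM and the other 3 none, and SRSF4 had 0, 105 and 0 CPM. Again SRSF3 had none, and SRSF6 had 1.72, 0 and 0 CPM, below every other library with a tag.

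Mirg was the lowest of the 3 in most libraries, with 50.5, 42.7 and 0 CPM in NXF1. SRSF1 replicates held 226, 179, 69.0 and 0 CPM, SRSF5 replicates 72.1, 105, 52.8 and 63.8 CPM, and SRSF7 replicates 0, 182, 0, 316, 0 and 105 CPM. The libraries labelled SRSF2 replicates 2 and 5 held 63.6 and 89.9 CPM, SRSF4 held 0, 23.7 and 0 CPM, and SRSF3 and SRSF6 held none in any library. In the 10 libraries of SRSF1, SRSF5 and SRSF7 with at least 50000 listed tags, every one carried all 3 RNAs, at 40.1 to 1584 CPM for Meg3, 106 to 643 CPM for Rian and 52.8 to 316 CPM for Mirg. The 6 SRSF3 and SRSF6 libraries held 409282 to 2323026 listed tags each, and of their 10107917 tags together 6 lay on the exons and introns of the 3 genes.

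**Figure D2:**
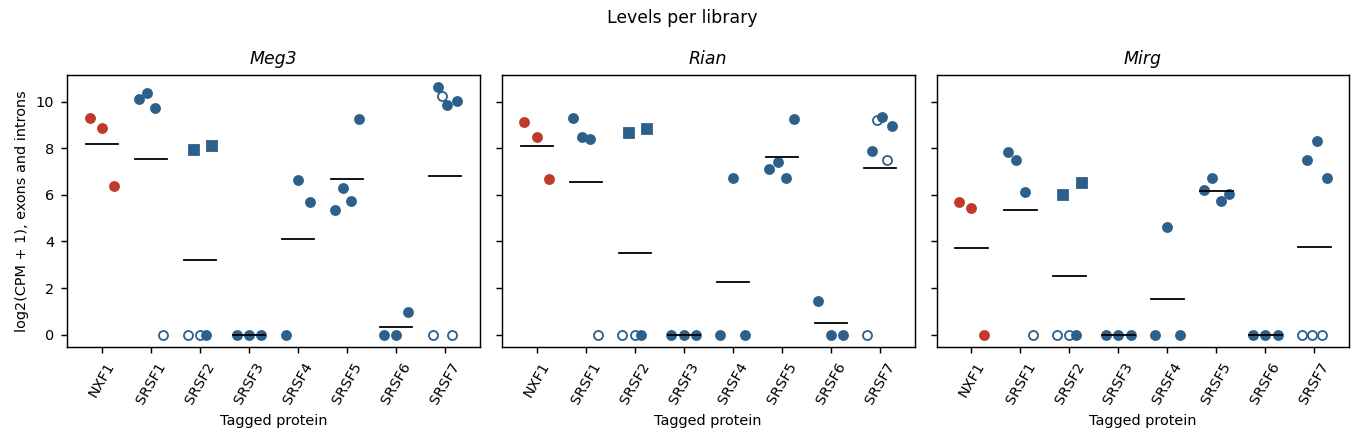
Level of Meg3, Rian and Mirg over exons and introns in each library, as log2(CPM + 1), with NXF1 in red left of the SR proteins in blue. Filled points are libraries with at least 50000 listed tags, open points those with fewer, squares the libraries labelled SRSF2 replicates 2 and 5, and bars the mean per protein. SRSF3 lies at 0 in all 3 panels and the deep SRSF1, SRSF5 and SRSF7 libraries lie apart from it.

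Each SR protein was set against the mean of the other 6 in a limma voom fit over 31 libraries and 6095 genes, with Benjamini-Hochberg adjustment over all genes, and a call was an adjusted p under 0.05. With SRSF1 all 3 RNAs were higher than with the other SR proteins, against 1.21% of all genes tested that were called higher there. Meg3 averaged 810 ± 573 CPM with SRSF1 and 258 ± 458 CPM in the libraries of the other SR proteins (SD, n = 4 and 24; adjusted p = 0.0132). Rian averaged 331 ± 260 CPM with SRSF1 and 172 ± 228 CPM with the others (adjusted p = 0.0251), and Mirg 118 ± 103 CPM and 44.8 ± 75.8 CPM (adjusted p = 0.00678). With SRSF7 all 3 were higher too, against 2.49% of all genes. There Meg3 averaged 793 ± 653 CPM, against 213 ± 387 CPM with the other SR proteins (n = 6 and 22; adjusted p = 0.00714), Rian 358 ± 256 CPM against 150 ± 213 CPM (adjusted p = 0.00403) and Mirg 101 ± 129 CPM against 42.9 ± 62.9 CPM (adjusted p = 0.00825). With SRSF5, where 1.69% of genes were called higher, Rian averaged 256 ± 238 CPM, against 185 ± 237 CPM with the others (n = 4 and 24), and was called higher (adjusted p = 0.0119), as was Mirg at 73.4 ± 22.5 CPM against 52.3 ± 88.3 CPM (adjusted p = 0.00869). Meg3 did not pass with SRSF5 (adjusted p = 0.0817), at 195 ± 277 CPM against 361 ± 533 CPM. The means weigh libraries equally whereas the fit weighs the 6 other proteins equally on the log2 scale.

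All 3 RNAs were lower with SRSF3 (adjusted p = 0.0258 for Meg3, 0.0128 for Rian and 0.011 for Mirg), against 2.41% of all genes called lower. They were also lower with SRSF6 (adjusted p = 0.0407, 0.0252 and 0.016 in that order), against 0.722% of all genes. No fitted log2 size is given for any of these comparisons, because SRSF3 and SRSF6, at or near 0, enter each one and make the fitted value depend on the offset of 0.5 tags that voom adds. No RNA was called with SRSF2 (adjusted p = 0.933, 0.805 and 0.811), where 0.427% of genes were called in either direction, or with SRSF4 (adjusted p = 0.907, 0.939 and 0.988), where 0.427% were called as well. Across the 7 comparisons Meg3 was called in 4, Rian in 5 and Mirg in 5. Over all genes, 6.3% of gene and protein combinations were called, and 34.3% of genes in at least 1 comparison. The comparisons share their libraries, so these calls are not independent of one another. SRSF3 and SRSF6, at or near 0, are part of the average behind every higher call, and their part in those adjusted p-values was not tested. The median gene was itself shifted in these comparisons, by -0.54 with SRSF1, 0.78 with SRSF3, -1.27 with SRSF5, 1.03 with SRSF6 and 0.54 with SRSF7 on the log2 scale, in every case but SRSF7 opposite to the 3 RNAs.

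These calls rest on few libraries. Under limma-trend, without voom's weights, none of the 3 RNAs was called with any SR protein, while each had an unadjusted p under 0.05 in 4 of the 7 comparisons and 95 calls were made over all genes and comparisons. The SRSF1 calls of Meg3 and Rian were lost without any single one of SRSF1 replicates 1, 2 and 3, all 3 SRSF6 calls without any one SRSF6 library, and the SRSF3 calls of Meg3 and Rian without any one SRSF3 library. The SRSF7 calls of Meg3 and Rian held without each of the 31 libraries in turn, with adjusted p up to 0.0258 and 0.0155, but under median-of-ratios scaling the SRSF7 calls of all 3 were lost (adjusted p = 0.117 for Meg3, 0.0787 for Rian and 0.18 for Mirg).

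Without the libraries labelled SRSF2 replicates 2 and 5, every one of these calls was kept in limma voom, and Meg3 was called with SRSF5 as well (adjusted p = 0.0354). By the year in their file headers the libraries fell into an earlier and a later set. Only the year was used, so a set may hold several sequencing runs. The earlier set held SRSF2, SRSF5, SRSF6 and SRSF7 replicates 1 to 3. The later one held SRSF1, SRSF3, SRSF4, NXF1 and SRSF7 replicates 4 to 6. Against the SR proteins of their own set, SRSF1 stayed higher (adjusted p = 0.0219 for Meg3, 0.0201 for Rian and 0.0201 for Mirg). SRSF3 stayed lower (adjusted p = 0.00627, 0.00209 and 0.00291), as did SRSF6 (adjusted p = 0.0122, 0.0074 and 0.00332). SRSF5 stayed higher for Rian (adjusted p = 0.0457) and Mirg (adjusted p = 0.0202). SRSF7 was called in neither set for Meg3 (adjusted p = 0.0782 in the earlier and 0.118 in the later). For Rian (adjusted p = 0.0106) and Mirg (adjusted p = 0.0463) it was called in the later set only. In the earlier set the adjusted p was 0.197 for Rian and 0.362 for Mirg.

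A permutation test over the 28 SR protein libraries asked whether libraries of one protein resembled each other in log2(CPM + 1) more than those of different proteins. The protein accounted for 39.0% of the variance of Meg3 (permutation p = 0.0828, two-sided, 100000 resamples), 47.8% for Rian (p = 0.0241) and 40.4% for Mirg (p = 0.0677), with p-values not adjusted. Over the 22 libraries with at least 50000 listed tags it accounted for 79.7% of the variance of Meg3 (permutation p = 0.00077), 75.6% for Rian (p = 0.00183) and 82.0% for Mirg (p = 0.0003). With the libraries labelled SRSF2 replicates 2 and 5 left out, the permutation p was 0.0235 for Meg3, 0.00247 for Rian and 0.02 for Mirg. Within the earlier set by header year, of 15 libraries, it was 0.154 for Meg3, 0.132 for Rian and 0.082 for Mirg. Within the later set of 13 it was 0.222, 0.0284 and 0.178 in that order.

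Some libraries with few or no tags on the RNAs had the same year and lane name in their file headers as libraries that carried more. SRSF3 replicates 2 and 3, with no Rian tag, shared a lane name with SRSF4 replicate 2, which held 197. SRSF4 replicate 3 had that lane name too, and no Rian tag. SRSF3 replicate 1 shared another with SRSF4 replicate 1, and neither had a tag on the 3 RNAs. SRSF6 replicate 1, with 4, shared one with the library labelled SRSF2 replicate 2, which held 1637. A part of the lane in these levels was not tested. The deposited pooled files of SRSF3 and SRSF6 were nearly empty on the 3 RNAs as well. The pooled SRSF3 file had 3 tags on Meg3 and none on Rian or Mirg among 6254584, and the pooled SRSF6 file had 4 on Rian and none on the others among 7437045.

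Beside these differences another set of genes moved between the lines. Ddx3y, Uty, Kdm5d and Eif2s3y, 4 genes of the Y chromosome that were chosen after their values were seen, had 0 tags together among 4511240 tags of SRSF3 and 0 among 1534497 tags of SRSF4, and at most 9.44 CPM in a library of SRSF6. Their sum was 48.1 to 498 CPM in the 10 deep SRSF1, SRSF5 and SRSF7 libraries, 351 and 355 CPM in the libraries labelled SRSF2 replicates 2 and 5 and 0 CPM in the other SRSF2 libraries. In NXF1 it was 8.42, 14.2 and 27.6 CPM. Tags on genes outside the imprinted domain thus differed between the libraries as well, and the part of this in the levels of Meg3, Rian and Mirg was not tested.

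NXF1 was set beside the SR proteins on the scale of the listed totals first. Meg3 averaged 393 ± 280 CPM with NXF1 (SD, n = 3) and 337 ± 504 CPM with the SR proteins (SD, n = 28), which had tags in 16 libraries. Rian outside its small RNAs averaged 336 ± 226 CPM with NXF1 and 195 ± 234 CPM with SR proteins, again with tags in 16 of 28. Mirg averaged 31.1 ± 27.2 CPM with NXF1 and 55.3 ± 82.2 CPM with SR proteins, with tags in 13 of 28. With the libraries labelled SRSF2 replicates 2 and 5 left out, the SR protein means were 343 ± 523 CPM for Meg3, 177 ± 234 CPM for Rian and 53.6 ± 85.1 CPM for Mirg (SD, n = 26). On this scale the NXF1 values of each RNA lay inside the range of the SR protein libraries. Other scalings changed this for Rian. Scaled to tags in coding genes, it stood at 2050, 1918 and 616 CPM in NXF1, and the highest SR protein library, SRSF7 replicate 3, had 1318 CPM, so that 2 of the 3 NXF1 libraries lay above every SR protein library. Scaled by median-of-ratios, 1 of the 3 did. Meg3 and Mirg stayed inside the range under both, and the sign of the Mirg difference turned under both.

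Along Meg3 the tags crowded at the start of the gene. The first 10 kb held 82.9% of all Meg3 tags, and 95.1% of those of NXF1, 81.8% of SRSF1, 86.7% of SRSF2, 84.7% of SRSF4, 94.5% of SRSF5 and 81.1% of SRSF7, or 84.2% without SRSF7 replicate 4. Exons held 51.0% and 48.5% of the Meg3 tags in the NXF1 libraries with at least 20 tags on the gene, and 62.2% to 100% in SR protein libraries. Because the exons of all isoforms cover 17915 nt, an exon tag in Meg3 can come from an intron of another isoform. The exon share did not differ between SRSF1, SRSF2, SRSF5 and SRSF7 beyond the spread of their libraries (permutation p = 0.55, 11 libraries).

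Rian differed from Meg3 in that many of its tags lay in hosted snoRNAs, and the proteins divided over its parts. Exons held 88.0%, 72.5% and 76.2% of the Rian tags in SRSF7 replicates 3, 4 and 6, 15.9%, 43.2% and 59.2% in SRSF5 replicates 1, 2 and 4, and 40.0% and 46.0% in the libraries labelled SRSF2. In SRSF1 replicates 1 to 3 they held 25%, 9.48% and 6.69%. So every SRSF7 library with at least 20 tags on Rian lay above every such library of the other 3 proteins. The difference among the 4 was larger than the spread of these libraries (permutation p = 0.0045, 11 libraries, and p = 0.007 without those labelled SRSF2). When positions were counted in place of tags, it was not (permutation p = 0.0911).

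Hosted small RNAs held 65.8%, 84.8% and 89.8% of the Rian tags in SRSF1 replicates 1 to 3, against 0%, 12.5% and 15.6% in SRSF7 replicates 3, 4 and 6. In NXF1 they held 52.5%, 55.8% and 52.2%, and exons 32.2%, 32.7% and 13.0%. Introns, by far the longest part of Rian, held 15.2%, 11.504% and 34.8% of the Rian tags in the NXF1 libraries, 9.20%, 5.69% and 3.52% in SRSF1 replicates 1 to 3 and 12%, 14.99% and 8.24% in SRSF7 replicates 3, 4 and 6. Per kb of annotated sequence, the SRSF7 libraries together had 362 tags in exons and 11.3 in introns, and 66.7 and 1.18 without replicate 4.

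Mirg had its tags divided nearly evenly between exons and introns, although its exons are much the shorter part. Per kb, exons held more tags than introns with every protein that had tags there. The SRSF7 libraries together had 224 tags per kb in exons and 80.2 in introns, and those of SRSF1 34.2 and 9.87. Exons held 42.4% to 66.1% of the Mirg tags in the SR protein libraries tested, with no difference between proteins beyond the spread (permutation p = 0.0683, 8 libraries). Hosted microRNA precursors held 3.02% of the Mirg tags in SRSF7 replicate 4 and 1.69% in replicate 6, and none in any other single library.

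**Figure D3:**
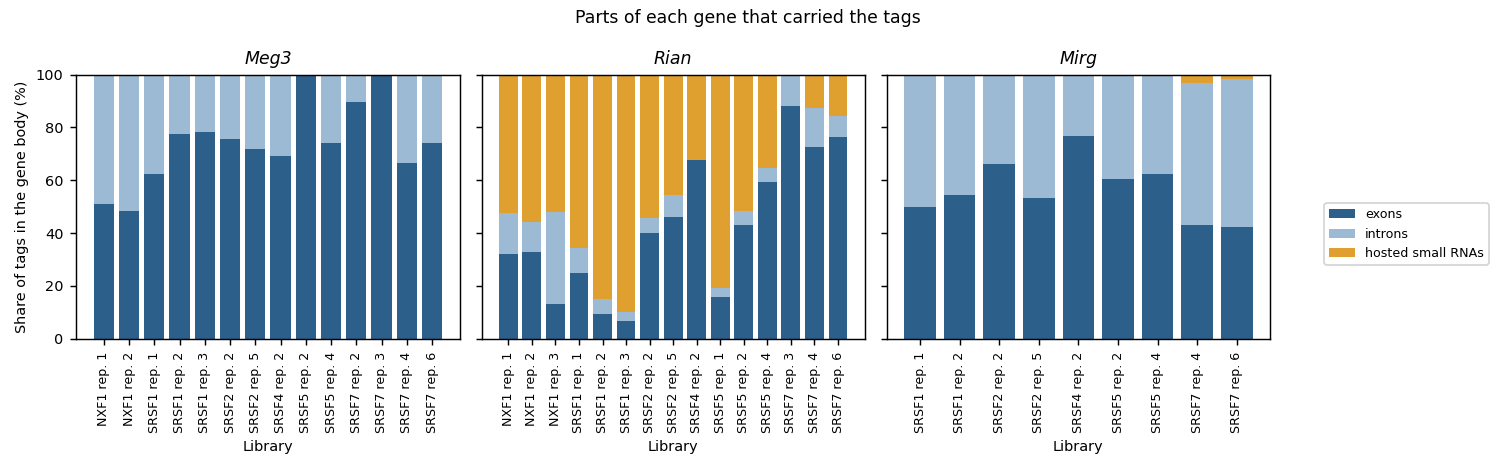
Share of the tags of each gene (%) in exons, introns and hosted small RNAs, for libraries with at least 20 tags on the gene, with NXF1 left of the SR proteins. Hosted small RNAs take 65.8% to 89.8% of Rian in SRSF1 and at most 15.6% in SRSF7.

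The annotated domain held 75 small RNA genes, 23 snoRNAs and 52 microRNAs. Tags were listed on 11 of the snoRNAs, 6291 in all, and on 9 of the microRNAs, 365 in all. SRSF3 and SRSF6 had no tag on any of the 10 small RNAs with most tags. The 64417 copy of SNORD113 had 1526 tags in 14 libraries, the most of any, with 215, 128 and 36.8 CPM in NXF1, 274, 309, 483 and 0 CPM in SRSF1 and 289, 95.5, 0 and 162 CPM in SRSF5. In SRSF7 it reached at most 48.1 CPM.

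The 88294 copy was set apart by its protein, a pattern picked out after the values were seen and so given without a test. SRSF1 gave 950 of its 1120 tags, at 617, 1409, 1944 and 0 CPM in replicates 1 to 4. No other library exceeded 84.2 CPM, the value in NXF1 replicate 1, and SRSF5 had none. Among the tags on snoRNAs of Rian, this copy took 50.5%, 70.5% and 66.3% in SRSF1 replicates 1 to 3, 19.2% and 23.5% in SRSF7 replicates 4 and 6, 2.47% and 3.53% in the libraries labelled SRSF2 and 0% in 3 SRSF5 libraries. In NXF1 it took 13.8%, 0% and 8.33%. By contrast, the neighbouring 84549 copy stood at 183, 167 and 242 CPM in SRSF1 replicates 1 to 3, beside 280, 74.8 and 126 CPM in SRSF5 replicates 1, 2 and 4.

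The snoRNAs between Rian and Mirg stood high in NXF1 instead. Small RNA genes of the whole genome also took a larger part of the listed tags there, 69314 of 237488, 43922 of 140361 and 32919 of 108708. In the SR protein libraries they ran from 118709 of 4459523 in SRSF7 replicate 4 to 2844 of 13038 in SRSF7 replicate 1. The part of this in the levels of these snoRNAs was not tested. The 64487 copy, part of the result that had put these genes forward, held 749.5, 805 and 488 CPM in NXF1, against at most 164 CPM in any SR protein library. AF357428 held 291, 249 and 55.2 CPM in NXF1 and a mean of 2.77 ± 6.48 CPM with SR proteins. AF357341 averaged 193 ± 98.0 CPM in NXF1 and 22.4 ± 35.6 CPM with SR proteins, and the 64545 copy 74.5 ± 15.2 CPM and 1.02 ± 2.96 CPM. AF357355, inside Rian, averaged 148 ± 137 CPM in NXF1 and 24.5 ± 57.1 CPM with SR proteins, where SRSF1 replicate 3 reached 265 CPM. The copies resemble one another, and 64487 and 64545 are 92% identical, so the division of tags between these is uncertain. With the libraries labelled SRSF2 replicates 2 and 5 left out, the SR protein means of AF357428, AF357341, 64545 and AF357355 were 2.05, 20.9, 0.905 and 23.2 CPM.

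**Figure D4:**
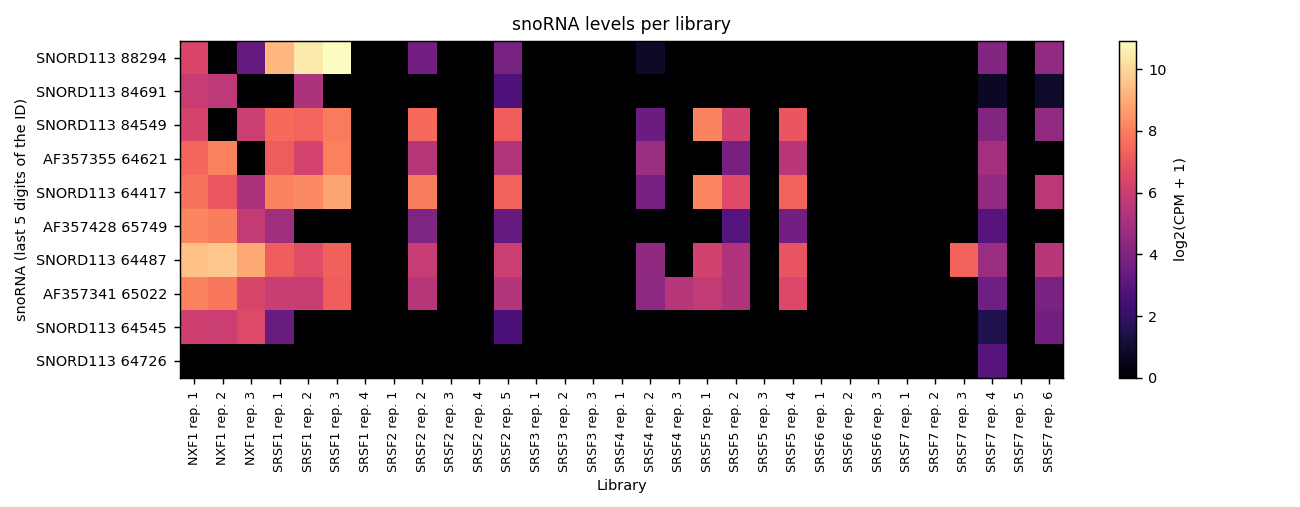
Level of 10 snoRNAs of the domain in every library, as log2(CPM + 1), with NXF1 left of the SR proteins. SNORD113 88294 is brightest in SRSF1 replicates 1 to 3, at 617 to 1944 CPM, and SNORD113 64487 in NXF1, at 488 to 805 CPM.

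Within most of the tagged snoRNAs, tags gathered in the middle, between the C box and the D box. Of 3 equal stretches of each snoRNA, the middle one held 87.3% of the tags of the 88294 copy, 98.2% of 84549 and 92.7% of 64417. A cDNA that starts in the last stretch of a mature snoRNA would be short and may escape mapping. The part of this in where the tags lay was not tested. On 88294 the most tagged base, counted from 1 at the annotated start, was base 26 in SRSF1, base 27 in NXF1 and SRSF7 and base 33 in the libraries labelled SRSF2. On 64417 it was base 33 in SRSF1, SRSF5, SRSF7 and the libraries labelled SRSF2 and base 32 in NXF1, and on AF357355 base 33 for every protein with 20 tags or more. On 64487 it was base 39 in SRSF1, SRSF4, SRSF5 and the libraries labelled SRSF2, base 36 in SRSF7 and base 28 in NXF1. The 64545 copy departed from this, with 29 of its 35 NXF1 tags and 14 of its 21 SRSF7 tags at base 1. So did the 84691 copy, with 46 tags, and the 84487 copy, with 6, which had 100% of their tags in the first stretch.

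**Figure D5:**
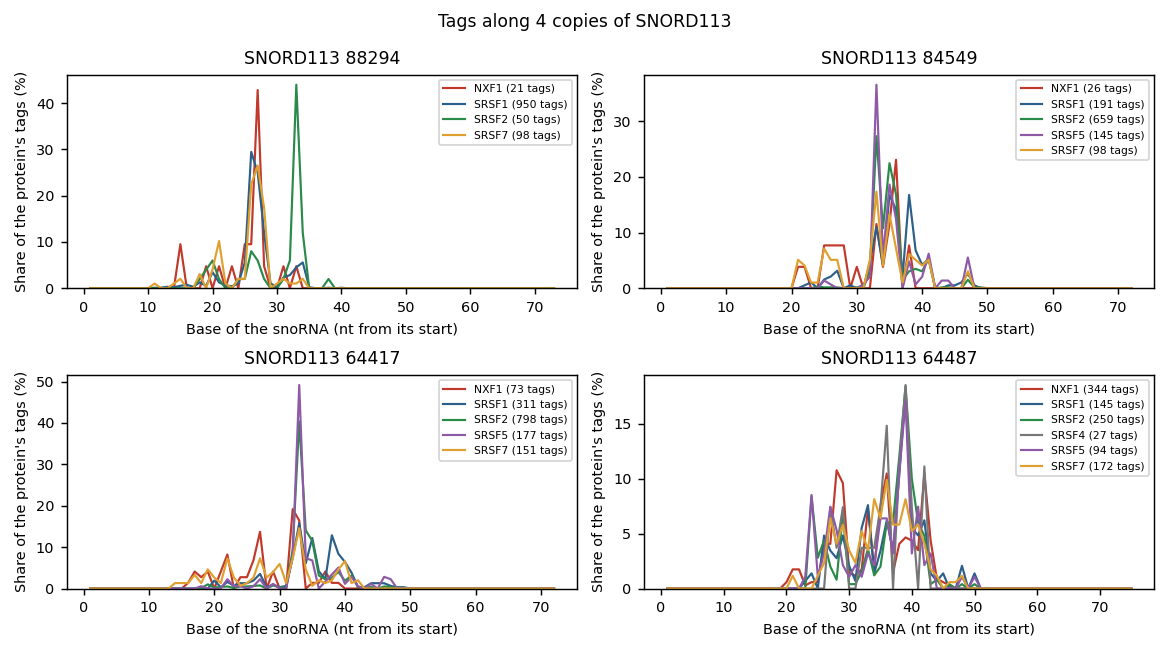
Share of each protein's tags (%) at each base of 4 copies of SNORD113, for proteins with at least 20 tags on the copy. SRSF2 stands for the libraries labelled replicates 2 and 5. On 88294 the SRSF1 peak is at base 26 and that of the libraries labelled SRSF2 at base 33, and on 64417 the peaks fall at bases 32 and 33.

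Precursors of microRNAs carried far fewer tags. Mir666 had 83, all in SRSF7 libraries, and Mir1193 had 76 in 5 libraries, among them NXF1 at a mean of 9.83 ± 17.0 CPM. Mir379, just outside the 10 small RNAs with most tags, had 67 in 7 libraries, with a mean of 18.2 ± 31.6 CPM in NXF1. RefSeq (GRCm38.p6) gave mature sequences for 47 of the 52 microRNA genes. The 5′ arms of the Mir379 and Mir1193 precursors share their seed, bases 2 to 8, shown in capitals.
miR-379-5p: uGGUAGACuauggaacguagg
miR-1193-5p: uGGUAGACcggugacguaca

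Between the genes, where no gene body was annotated for these RNAs, tags were still listed. SnoRNAs and microRNAs in these gaps averaged 1175 ± 400 CPM in NXF1 and 67.1 ± 91.4 CPM with SR proteins, or 61.7 CPM without those labelled SRSF2. The 64487 copy, part of the result that had put these genes forward, lies in these gaps. Its levels, given above, made up a large part of the NXF1 average, so this difference is a description only. As given above, the NXF1 libraries were richer in small RNA tags over the whole genome too. Small RNAs made up 76.1%, 90.9% and 100% of the tags between the genes in NXF1 replicates 1 to 3. Outside small RNAs the stretch from the last snoRNA to Mirg held 2.36 ± 3.67 CPM per kb in NXF1, 3.85 ± 2.97 CPM per kb in SRSF1 and 8.24 ± 12.5 CPM per kb in SRSF7, whose replicate 4 reached 32.7 CPM per kb. Mirg itself held 2.26 ± 1.98, 8.61 ± 7.47 and 7.32 ± 9.40 CPM per kb in the same order. Both densities came from the same libraries, and the difference between that stretch and the annotated gene was not tested. Meg3 was the densest stretch in SRSF1, at 26.5 ± 18.7 CPM per kb, and in SRSF7, at 25.9 ± 21.4 CPM per kb.

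The tags lay at 2440 positions of Meg3, 1797 of Rian and 803 of Mirg, and most positions were listed in a single library, 59.02%, 55.8% and 74.7% of them in that order, or 62.9%, 63.1% and 79.2% when those labelled SRSF2 replicates 2 and 5 were left out. The 10 positions with most tags held 8.01% of the Meg3 tags, 21.4% of the Rian tags and 15.7% of the Mirg tags. The leading positions of Meg3 and Mirg are shown with 10 bases on either side, the listed base in capitals, because they were shared by most proteins.
Meg3 at 110787986, exon, 140 tags: cgcgaggactTcacgcacaac
Meg3 at 110796459, exon, 135 tags: aaagccatcaTctggaatcct
Meg3 at 110781964, exon, 73 tags: aggaccacctTctggatgcca
Mirg at 110981883, exon, 87 tags: caggacagctTcaggtggtga
Mirg at 110981895, exon, 45 tags: aggtggtgatTccagctccag

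SRSF7 gave most of the tags at the first of these, 97 of 140, and SRSF1 gave 35. The position at 110796459 was listed in 12 libraries of 6 proteins, with 3 tags in NXF1, and that at 110981895 in 11 libraries of 6 proteins. The leading positions of Rian fell in snoRNAs, 493 tags at base 33 of 64417 and 308 tags at base 26 of 88294. Thymine, uridine in the RNA, was the listed base at 39.8% of positions in SRSF1, 40.8% in SRSF7, 51.3% in SRSF5 and 51.9% in NXF1, while it made up 28.4% of all bases of the genes. Ultraviolet light is known to cross-link uridine best.

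The short purine motif GGA was near a larger share of SRSF1 positions than of those of the other proteins. GGA, a part of the known SRSF1 motif, was searched on the RNA strand within 10 bases on either side of each position outside small RNAs, and 26.5% of all bases of the 3 genes had it in such a window. It was near 43.0% of SRSF1 positions, 30.8% of SRSF7 positions, 31.5% of those in the libraries labelled SRSF2, 22.4% of SRSF5, 23.8% of SRSF4 and 24.9% of NXF1 positions. GAAGAA, the longer purine motif, did not set SRSF1 apart. It was near 0.898% of SRSF1 positions, 0% (NXF1) to 0.971% (SRSF4) of those of the other proteins and in 0.798% of all windows. CNTC, a pyrimidine motif known from SRSF3, was in 21.1% of all windows and near 29.5% of NXF1 and 33.3% to 38.8% of the positions of each SR protein with tags. GACGA, known from SRSF7, was near 0.355% of SRSF7 positions and 2.46% of NXF1 positions and in 0.361% of all windows. GCCNG was near 3.16% to 9.71% of positions and in 4.73% of all windows. Positions lie close together and share windows, and the windows over all bases include the long introns, so these are descriptions.

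NXF1 positions on the 3 RNAs nearly always had an SR protein position nearby, but so did NXF1 positions as a whole. Of 580 positions in the pooled NXF1 file, 96.2% had a position of at least 1 SR protein within 30 nt on the same strand in its pooled file. Over all 166264 NXF1 positions the share was 95.9%, and over those in exons of noncoding genes 97.6%. Without the pooled SRSF2 file it was 93.1% on the 3 RNAs and 95.1% over all NXF1 positions. Because the pooled SRSF3 and SRSF6 files had almost no tag on the 3 RNAs, few NXF1 positions there could have such a neighbour. SRSF3 was near 1.72% and SRSF6 near 5.69% of the positions on these RNAs, against 87.3% and 88.4% of all NXF1 positions. SRSF1 was near 87.4%, SRSF2 95.5%, SRSF5 89.7% and SRSF7 84.5%, against 72.9%, 88.6%, 72.0% and 73.9% of all NXF1 positions, and SRSF4 was near 62.2% against 80.6%. The deposited pooled files are of unequal depth, and that of SRSF7 held 1449645 tags, fewer than SRSF7 replicate 4 alone.

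The 3 RNAs rose and fell together across the 31 libraries, as a description over libraries that differ in protein and depth. Spearman's correlation of log2(CPM + 1) was 0.86 between Meg3 and Rian, 0.79 between Meg3 and Mirg and 0.78 between Rian and Mirg, while the median over the 6095 genes was 0.05, 0.07 and 0.10 with Meg3, Rian and Mirg. With the libraries labelled SRSF2 replicates 2 and 5 left out, the correlations were 0.86, 0.79 and 0.79 over 29 libraries, in the same order of pairs. Each had the other 2 as its closest genes. Next came the 64487 copy for Meg3 (0.74) and Rian (0.77), and for Mirg the Y-linked helicase gene Ddx3y (0.75), followed by the 64417 (0.75) and 84549 (0.73) copies. Outside the chromosome, Tmem167b reached 0.72 with Meg3 and 0.77 with Rian, at 1246, 848 and 294 CPM in NXF1 and at most 440 CPM in any SR protein library, and the ribosomal protein gene Rpl17 reached 0.70 with Meg3.

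The imprinted coding genes of the same domain were nearly absent from the maps. Dlk1, a Notch-like ligand, had 6 tags in 2 libraries, and the retrotransposon-derived Rtl1 and the deiodinase gene Dio3 had none. Begain had 13 and Wdr25 107, too few to be tested, while the adjoining genes Yy1 and Wars had 2196 and 2094 tags. Of these, Wars was lower with SRSF5 (adjusted p = 0.0282), where 20.3% of all genes were, and neither was called with SRSF1, SRSF3, SRSF6 or SRSF7.

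Imprinted genes elsewhere did not share one pattern. Of 23 imprinted coding genes on the list 13 were tested. With SRSF1 2 were higher and 2 lower (median log2 difference -0.62, all genes -0.54), where 1.21% of all genes were called higher and 1.41% lower. With SRSF3 2 were higher and 3 lower (0.87, all genes 0.78), where 8.47% of all genes were called higher and 2.41% lower. Impact, a regulator of translation, was higher with SRSF1 (adjusted p = 0.00678) and lower with SRSF3 (adjusted p = 0.00553) and SRSF5, and the receptor gene Igf2r was higher with SRSF1 and lower with SRSF3 and SRSF6. The retrotransposon-derived Peg10 and the hydrolase gene Mest were higher with SRSF3 in turn. With SRSF5 5 were lower and none higher (-2.0, all genes -1.27), where 20.3% of all genes were called lower. With SRSF6 3 were higher and 1 lower (1.02, all genes 1.03), where 4.12% of all genes were called higher and 0.722% lower. With SRSF7 1 was higher and none lower (0.79, all genes 0.54), where 2.49% of all genes were called higher.

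Among imprinted noncoding RNAs elsewhere 10 were listed, of which Kcnq1ot1, Peg13 and Snhg14 were not found in the annotation by these names. Of the others only Nespas passed the filter for testing. It was lower with SRSF5, where 20.3% of all genes were, while H19 had 17 tags in 3 libraries. Of 15 noncoding hosts of small RNAs 10 were tested. Of these 1, Rmst, was higher with SRSF7, where 2.49% of all genes were, and 1, Snhg5, lower with SRSF5, where 20.3% were. Of 8 nuclear long noncoding RNAs 5 were tested, Malat1 and Neat1 among them. Of these 1, Tsix, was higher with SRSF3, where 8.47% of all genes were, and 1, Tug1, lower with SRSF5, where 20.3% were.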

How the data were processed

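Tag counts came from deposited position files of 31 iCLIP libraries and from the pooled files of the 8 proteins and the control. Per the file headers and the study's methods, the authors mapped reads to mm9 and kept single positions where tags were denser than the authors' false discovery limit allowed, so the deposited values are cDNA counts at listed positions, with the strand as sign, and not all reads. The submitters' processing notes name CASAVA 1.4. Which aligner made them is not given in the sources used. Depth beyond the listed tags is unknown, so no counting interval is given.

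Tags were assigned by strand to GENCODE vM1 genes, with small RNA genes taken first, then exons, then introns. A gene was tested where 3 or more libraries had 42.1 CPM or more (equal to 10 tags in a library of 237488, the median) and 15 tags were listed in all, which left 6095. Library size was the listed total. The main test was limma voom (limma 3.58.1, R 4.3.3) over 31 libraries with protein as the factor and no block, with 1 contrast for every SR protein, set against the average of the remaining 6. Benjamini-Hochberg adjustment ran over all genes tested. Levels and exon shares of the 3 genes were compared by two-sided permutation of protein labels (100000 resamples), with p-values left unadjusted because the genes had been put forward with results known. Exon shares used libraries with at least 20 tags on the gene. The fits were tested on simulated data with known changes. Alternatives were other scalings, limma-trend, filters, thinning to 10000 tags, depth, assignment, windows and leaving out each library. The split by header year and the co-occurrence without the pooled SRSF2 file were added after the data were seen. So was the NXF1 difference without the doubted SRSF2 libraries. In the text the 3 genes, the 10 small RNAs with most tags, the leading positions of each gene, the most alike genes and all lists were named by rule, and Mir379 and the Y-linked genes after their values were seen. The members and lists were chosen with earlier results of these data known.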

Additional observations from a re-analysis of the deposited data

Results flagged for a closer look

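In groups of 4 to 10 libraries, a library was singled out where its gap to the nearest one was large against the range of its group by Dixon's criterion at the 95% level, which chance meets in about 1 of 20 groups. Of 18 groups examined 3 met it. SRSF5 replicate 4 stood at 610 CPM for Meg3, where the nearest SRSF5 library had 78.0 CPM, and also at 610 CPM for Rian outside its small RNAs, where the nearest had 170 CPM. This library also had the highest sum of the Y-linked genes among the SRSF5 libraries, 498 CPM against 48.1 to 90.8 CPM in the others, and the relation was not tested. SRSF7 replicate 4, the deepest library, stood at 9.87 CPM for the microRNA precursors in Mirg, where the nearest SRSF7 library had 1.81 CPM.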

How the results depend on the processing

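Calls of Meg3, Rian and Mirg with the SR proteins numbered 4, 5 and 5 in the limma voom fit. Median-of-ratios scaling left 2 for Meg3, keeping every gene with a tag left 3 for Rian, and limma-trend left 0 for Meg3, 0 for Rian and 0 for Mirg. Without each library in turn the Meg3 count ran from 2 to 4, Rian and Mirg from 4 to 5. Other calls lost with a single library were the SRSF6 call of Meg3, in 11 of 31 cases, the Mirg calls with SRSF1 (without replicate 1), SRSF3 (replicates 2 and 3) and SRSF7 (replicate 4), and the SRSF5 calls of Rian and Mirg (replicate 2). The permutation p for levels ran from 0.0174 (without SRSF1 replicate 4) to 0.127 (without SRSF3 replicate 1) for Meg3 and from 0.0172 to 0.111 for Mirg without each library in turn. In libraries with at least 50000 tags it was 0.00077 for Meg3 and 0.00030 for Mirg. Without the libraries labelled SRSF2 replicates 2 and 5 it was 0.0235 for Meg3 and 0.0200 for Mirg. Thinning to 10000 tags gave 0.0559 for Rian, the earlier set by header year alone 0.132 for Rian, and scaling to tags in coding genes 0.0245 for Mirg. For Mirg, thinning gave 0.261 and exons alone 0.383. The exon share of Rian had a permutation p of 0.0911 over positions in place of tags. The NXF1 mean minus the SR protein mean was 56.4 CPM for Meg3, 142 CPM for Rian and -24.2 CPM for Mirg. Scaling to tags in coding genes gave 1082 for Meg3 and 1105 for Rian, and median-of-ratios 532 for Rian. Leaving out NXF1 replicate 1 or 3 took the Meg3 difference to -60.5 or 212 CPM. NXF1 positions with an SR protein position nearby made 94.0% at 15 nt, 98.0% from summed single libraries and 93.1% without the pooled SRSF2 file, an alternative chosen after seeing the data. No direction of a call reversed. Where the cause of a change is not given by the alternative itself, the cause was not tested. Same-numbered libraries of different proteins did not deviate together (correlations from -0.22 to 0.29 over 91 pairs, median -0.01), so the numbers were not taken to pair them. The replicate block left 4 calls for Meg3, 5 for Rian and 5 for Mirg. In libraries with few listed tags a 0 does not show absence.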
